A study of Mus musculus with 2 samples.

Results

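The genes described here are Sgk1, a kinase gene, and the genes of the sodium uptake route that its product acts on in epithelium: the 3 subunits of the epithelial sodium channel (Scnn1a, Scnn1b and Scnn1g), the ubiquitin ligase genes Nedd4 and Nedd4l, the sodium pump subunit gene Atp1b1 and the FXYD genes Fxyd3 and Fxyd4. They were found on the array by gene symbol. All 9 were named by at least 1 probe set, out of 12393 genes named on the array, and 16 probe sets read them. Where a gene had several probe sets, the brightest one stood for it. RNA came from uterine epithelium, loosened with trypsin and pressed out of the tissue, of mice on day 4 of pregnancy. The control group is labelled as Stat3 flox control mice with the genotype control, and the other group has the genotype Stat3 knockout; both carry the same title, so genotype and description were used to tell them apart. The labels used here name no driver of the deletion and no age or strain of the mice. Each genotype was read by 1 Affymetrix Mouse Genome 430A 2.0 array, hybridised with pooled RNA (n = 3 per sample in the design text), so no difference has a replicate check, no test was possible, and differences are described by their size.

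The route is well known from kidney, lung and colon. The kinase SGK1 is made in response to corticosteroids and other signals, and it phosphorylates NEDD4L, a ubiquitin ligase that otherwise removes the sodium channel from the cell surface. Sodium then enters the cell through the channel at the apical side and is pumped out at the basolateral side by the sodium pump, which needs a catalytic alpha and a beta subunit, and water follows. In the uterus, fluid uptake by the luminal epithelium is thought to bring the walls of the lumen together before the embryo attaches.

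Each value is a MAS5 signal, a linear measure of how brightly a probe set hybridised once background was removed. Both arrays had been scaled to a trimmed mean of 150.0 before deposit. A floor was set at the 40th percentile of all signals, which was 14.0, and signals under it were treated as not measured. Of the 12393 genes, 8304 exceeded the floor in 1 or both genotypes and were given a log2 ratio of knockout over control, with a median of 0.05. The share of these genes that was higher in the knockout by 2-fold or more was 7.37%, and the share that was lower by as much was 9.92%. Probe sets of the same gene had log2 ratios with a spread (SD) of 0.28, taken over 2853 genes, which measures neither animals nor arrays. Stat3 itself had signals of 582 and 186 (control and knockout) in probe set 1460700_at and of 430.0 and 160.0 in probe set 1426587_a_at, or 3.12-fold and 2.69-fold lower in the knockout. Its remaining probe set, 1424272_at, was under the floor on both arrays (6.66 and 3.35). Both probe sets over the floor were thus lower on the array whose genotype label is Stat3 knockout. Where the deleted exons lie relative to these probe sets was not examined, so how complete the deletion was cannot be read from them. The epithelial markers Krt8, Krt18, Krt19, Cdh1, Epcam, Cldn7, Cldn3 and Elf3 were over the floor on both arrays, and all 8 lay within 2-fold. Of the 8, 5 were higher in the knockout and 3 lower. Elf3 came nearest to the limit, 1.95-fold lower (842 and 432).

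Of the 9 genes, 2 were higher in the knockout by 2-fold or more, Sgk1 and Scnn1a, and 0 were lower by as much (7.37% and 9.92% of all genes), while 5 were measured on both arrays and lay within 2-fold. Scnn1b was under the floor in the knockout, so its ratio is only a bound, and Scnn1g was under the floor on both arrays and has no ratio. The 2 higher genes are 25% of the 8 with a ratio. The median log2 ratio of the 8, with Scnn1b at its bound, was 0.45, beside 0.05 over all genes. With so few genes and 1 array per genotype, this share is a description of these arrays. RNA was taken from many cells together, so a larger share of cells of one kind and more RNA per cell cannot be told apart.

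**Figure D1:**
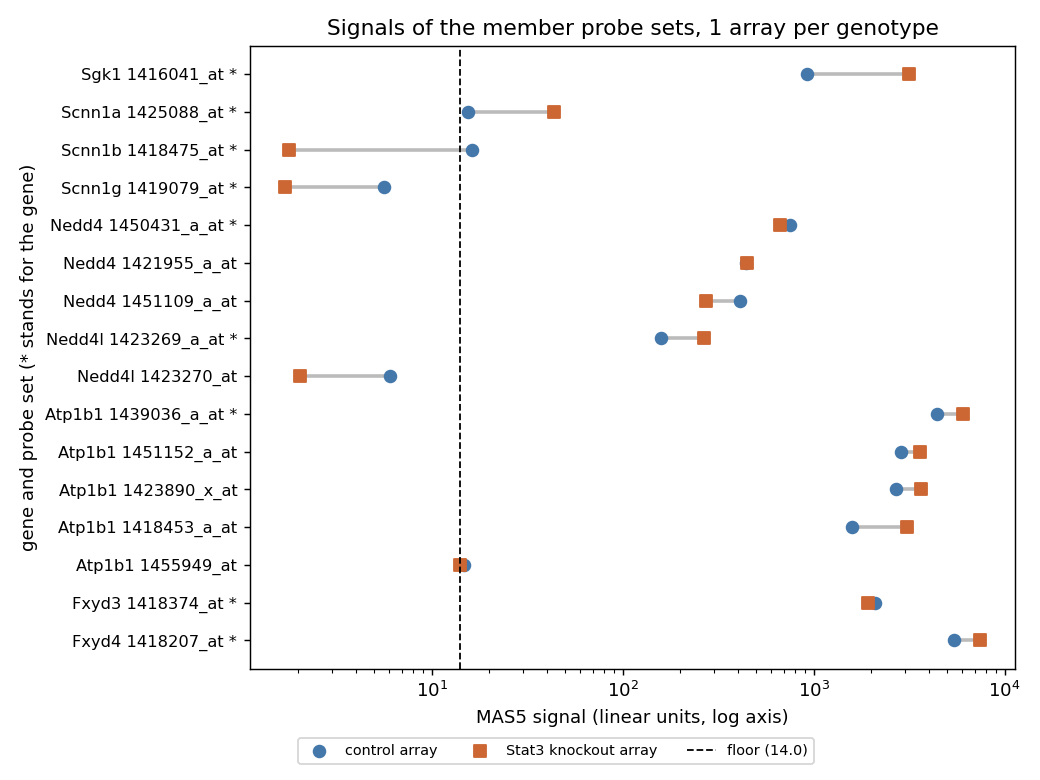
MAS5 signal of each of the 16 probe sets (rows; an asterisk marks the one that stands for its gene) on the control array (circles) and the Stat3 knockout array (squares), on a log axis, with the floor of 14.0 as a dashed line. Sgk1 has the widest gap among the bright probe sets, with 922 in the control and 3140.4 in the knockout, and the sodium channel subunits lie near or under the floor.

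Sgk1 (gene ID 20393) read 922 on the control array and 3140.4 on the knockout array in its only probe set, 1416041_at. The knockout array was the higher one, by 2218 signal units, or 3.40-fold (log2 ratio 1.77). Among all 8304 genes with a ratio, 103 (1.24%) had a ratio at least as high, Sgk1 included. Among the 667 brightest of them, those with a mean signal of at least 898.6, 9 did. The gene has no second probe set to set against this one. Under the scaling alternatives and with the floor value added, its log2 ratio stayed between 1.75 and 1.83. The other floor and probe set alternatives could not change it, because both signals lie far above the floors and the gene has 1 probe set.

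Some steroid receptors, those for corticosteroids among them, bind a palindrome, searched for here as AGAACA and, after any 3 bases, TGTTCT. Motifs of other steroid receptors were not searched for. STAT factors bind TTCNNNGAA. The promoter windows of RefSeq (GRCm38.p6, 250 bases before to 50 bases after each annotated transcript start) were searched for both motifs and for the single arm AGAACA on both strands; the palindrome holds the arm 2 times. Windows existed for 7 of the 9 genes, 13 windows in all, 6 of them for Sgk1, which has several annotated starts; Scnn1a and Nedd4l had none. The palindrome was found in 3 of 32851 windows (0.00913%), and 1 of these 3 belonged to Sgk1. The other 2 belonged to Acnat2, whose signals were under the floor on both arrays, and to Gm35041, which no probe set named. The STAT-type motif was found in 8.30% of all windows and in 2 of the 13, 1 for Sgk1 and 1 for Nedd4. The single arm was found in 19.0% of all windows and in 4 of the 13, 3 for Sgk1 and 1 for Nedd4. These are matches of letters and not measured binding, and the palindrome does not tell apart the steroid receptors that bind it.

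The Sgk1 windows that hold the palindrome and the STAT-type motif are printed because Sgk1 has the highest ratio of the 9 genes. They show the 250 bases before the start on the plus strand, at chr10:21993640-21993889 and chr10:21881934-21882183 of GRCm38.p6, 5′ to 3′, with each match in capitals. In the first, the palindrome lies at chr10:21993701-21993715, from 189 to 175 bases before the start, and the other capitals are a single arm on the minus strand. In the second, the first run of capitals is the STAT-type motif, from 223 to 215 bases before the start, and the second run is a single arm on the minus strand. Sgk1 starts 2, 3 and 6, numbered along the chromosome, held none of the 3 motifs. Which start gave the signal of the only Sgk1 probe set was not examined.
Sgk1 window with the palindrome: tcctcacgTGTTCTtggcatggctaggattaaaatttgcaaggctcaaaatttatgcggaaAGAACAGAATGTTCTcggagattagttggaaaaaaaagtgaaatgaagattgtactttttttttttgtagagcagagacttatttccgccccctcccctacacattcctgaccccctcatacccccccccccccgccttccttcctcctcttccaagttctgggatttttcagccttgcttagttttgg
Sgk1 window with the STAT-type motif: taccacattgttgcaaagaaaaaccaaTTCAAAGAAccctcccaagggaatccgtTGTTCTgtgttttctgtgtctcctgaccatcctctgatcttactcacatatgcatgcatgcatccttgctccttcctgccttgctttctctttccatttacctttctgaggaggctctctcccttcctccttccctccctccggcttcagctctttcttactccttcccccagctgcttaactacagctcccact

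**Figure D2:**
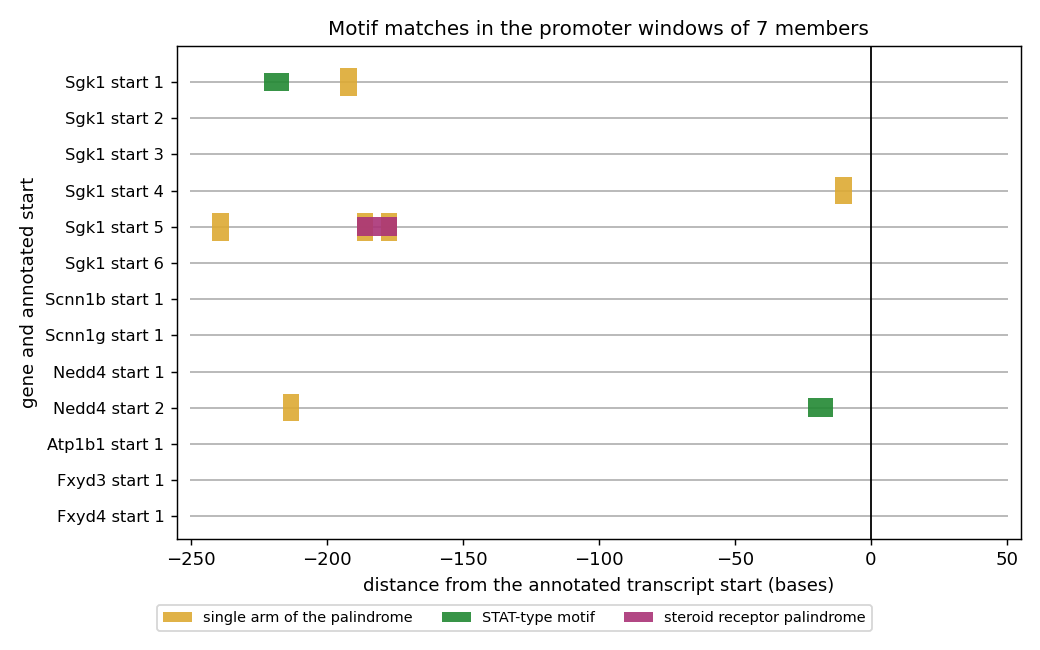
Matches to the 3 motifs (coloured bars) along the 13 promoter windows of 7 genes, by distance in bases from the annotated transcript start, with the starts of a gene numbered along the chromosome. The palindrome is in 1 window, that of Sgk1 start 5, from 189 to 175 bases before the start, and the windows of Scnn1b, Scnn1g, Atp1b1, Fxyd3 and Fxyd4 hold none of the 3 motifs.

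The sodium channel subunits were dim on both arrays. Scnn1a (gene ID 20276), the alpha subunit, without which the other subunits form little channel, read 15.5 in the control and 43.6 in the knockout (probe set 1425088_at). It was the higher one in the knockout, 2.81-fold (log2 ratio 1.49), but the control value lay just above the floor of 14.0. Of the 2357 genes with a mean signal under 56.2, as for Scnn1a, 9.29% were higher by 2-fold or more and 14.8% lower by as much, and 68 had a ratio at least as high as Scnn1a. With the floor value added to both signals, Scnn1a was 1.95-fold higher and no longer past 2-fold, and with the floor at the 60th percentile it had no ratio. Scnn1b (gene ID 20277), the beta subunit, read 16.2 in the control and 1.79 in the knockout (probe set 1418475_at). The knockout value was under the floor, so only a bound can be given, a decrease of 1.15-fold or more. Scnn1g (gene ID 20278), the gamma subunit, was under the floor on both arrays, with signals of 5.62 and 1.70 (probe set 1419079_at). With no floor at all, the deposited signals of Scnn1b and Scnn1g were 9.05-fold and 3.31-fold lower in the knockout. By these values Scnn1a was higher and Scnn1b, by its bound, lower in the knockout, while Scnn1g has no ratio and so no direction. For Scnn1b and Scnn1g the knockout signal was not measurable. The control values of Scnn1a and Scnn1b lay just above the floor, so these directions rest on dim signals. A dim signal can mean a weak probe set as well as little transcript, and the level of one subunit was not compared with that of another for this reason.

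The ubiquitin ligase genes lay within 2-fold. Nedd4l (gene ID 83814), whose product is the ligase that SGK1 phosphorylates, read 159.6 in the control and 265 in the knockout (probe set 1423269_a_at). It was 1.66-fold higher in the knockout (log2 ratio 0.73), a ratio that 14.2% of all genes reached. Its other probe set, 1423270_at, was under the floor on both arrays (6.08 and 2.05). Nedd4 (gene ID 17999), a related ligase with many targets, had signals of 749.8 and 668 in probe set 1450431_a_at, a log2 ratio of -0.17. Its other probe sets had signals of 443 and 450.1 (1421955_a_at, log2 ratio 0.02) and of 411 and 273 (1451109_a_at, -0.59). The 3 Nedd4 probe sets thus spanned 0, with a mean log2 ratio of -0.24 and an SD of 0.31 between probe sets.

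The sodium pump and FXYD genes were among the bright ones, and none reached 2-fold. Atp1b1 (gene ID 11931), the beta subunit that the pump needs to reach the cell surface, read 4400.4 in the control and 6027 in the knockout in its brightest probe set, 1439036_a_at. That is 1.37-fold higher in the knockout (log2 ratio 0.45). Its other bright probe sets had the same direction, with signals of 2881 and 3600.0 in 1451152_a_at (log2 ratio 0.32), 2707 and 3668 in 1423890_x_at (0.44), and 1596 and 3096 in 1418453_a_at (0.96). All 4 bright probe sets were thus higher in the knockout, between 1.25-fold and 1.94-fold. The fifth, 1455949_at, sat at the floor on both arrays, with 14.8 and 14.1, and is the only one whose name does not mark it as able to read several transcripts.

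Fxyd4 (gene ID 108017), also called CHIF, a small membrane protein that raises the sodium affinity of the pump and is known from kidney collecting duct and colon, read 5447 in the control and 7472 in the knockout (probe set 1418207_at). It was 1.37-fold higher in the knockout (log2 ratio 0.46), and 2080 of the 8304 genes had a ratio at least as high. Fxyd3 (gene ID 17178), also called MAT8, another pump regulator, had signals of 2105 and 1915 (probe set 1418374_at), a log2 ratio of -0.14. The FXYD genes thus lay on different sides of 0, both well within 2-fold.

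**Figure D3:**
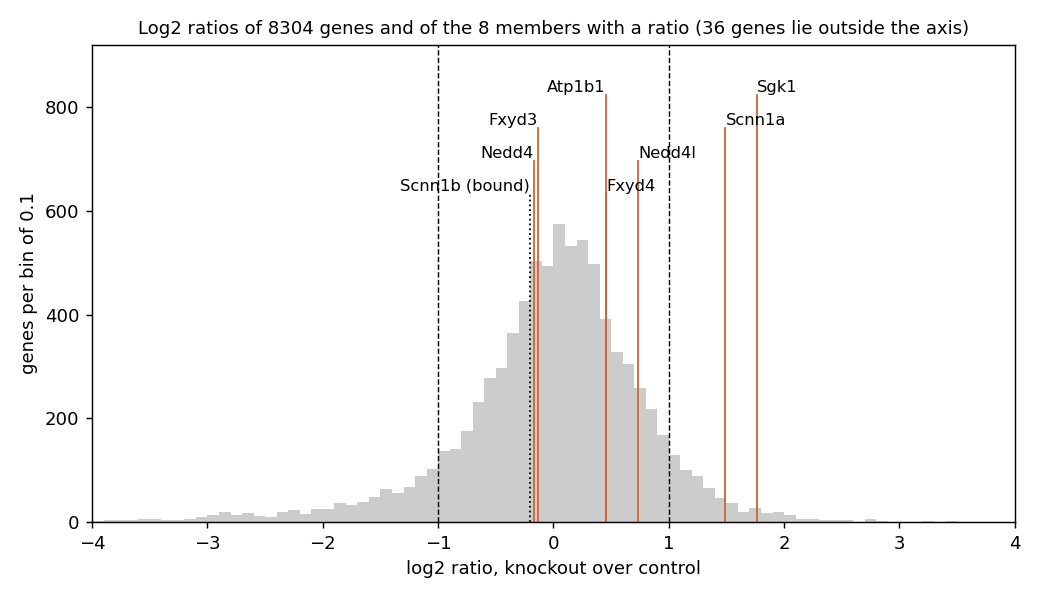
Histogram of the log2 ratio of knockout over control for 8304 genes (grey, genes per bin of 0.1), with a line for each of the 8 genes that have a ratio and dashed lines at 2-fold; the dotted line of Scnn1b is a bound. Sgk1 at 1.77 and Scnn1a at 1.49 lie beyond the 2-fold line, the 5 others measured on both arrays lie between -0.17 and 0.73, and Scnn1b is drawn at its bound of -0.21 and may lie lower.

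Outside these 9 genes, the measured genes nearest to Sgk1 (1.77) in log2 ratio were Gpcpd1, with signals of 553 and 1882, Pex11a, with 411 and 1401, and Syn2, with 37.0 and 126. Their folds were 3.41 in each case. With 2 arrays this likeness rests on 1 number per gene.

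Other genes of the route were read in 9 lists of 108 genes together, of which 85 had a probe set of their own and 72 a ratio. Past 2-fold on the higher side were 6 of the 72 (8.33%, beside 7.37% of all genes), and on the lower side 5 (6.94%, beside 9.92%). The share on the higher side was near that of all genes. The median log2 ratio was 0.14, beside 0.05 over all genes. Counts and medians of the single lists below are to be read beside these values over all genes, and each list holds few genes.

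Among 7 kinases of the SGK, PDK1 and mTORC2 group with a ratio, 1 was past 2-fold. Sgk3, which encodes the SGK kinase that sits on endosomes, had signals of 219 and 449, 2.06-fold higher, and its dimmer probe sets had 162 and 257, and 57.2 and 114, both within 2-fold in the same direction. Pdpk1, which encodes the kinase that activates SGK1, had 291 and 395, Mapkap1, a subunit of mTORC2, 142 and 147, and Akt1 207 and 127. Sgk2 was under the floor on both arrays (5.89 and 7.69).

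Among 6 other substrates of SGK1, 1 was past 2-fold. Foxo3, a transcription factor that SGK1 and AKT keep out of the nucleus, was 2.63-fold higher in the knockout (129 and 339.7; a dimmer probe set had 65.5 and 152). Ndrg1, whose phosphorylated form is used as a readout of SGK1 activity, had signals of 173 and 289.7, with its 4 dimmer probe sets between 1.33-fold and 1.96-fold higher, Foxo1 228 and 201, and Wnk4 170.1 and 213. Transcript signals carry no information on phosphorylation. Of 5 WNK and SPAK kinase genes, which act on chloride and sodium transporters, Stk39 was past 2-fold, lower by 2.63-fold or more (37.0 and 10.2, the latter under the floor). Wnk1 had 729 and 739.9, and Oxsr1 289.9 and 468.

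Among corticosteroid receptors and response genes, 3 of 11 were past 2-fold on the higher side and 2 on the lower. Over all genes the shares were 7.37% and 9.92%. The median of the list was 0.21 on the log2 scale, beside 0.05 over all genes. Dusp1 is also counted in the immediate early list below. Higher in the knockout were Per1, a clock gene, at 3.65-fold (48.2 and 176), Dusp1, a MAP kinase phosphatase gene, at 3.26-fold (375 and 1225), and Tsc22d3, which encodes the glucocorticoid-induced leucine zipper, at 2.89-fold (382 and 1105). The other Tsc22d3 probe sets were also past 2-fold, with signals of 198 and 679.6, and of 17.6 and 43.6. Lower were Cebpd, a transcription factor gene, at 3.55-fold (479 and 135), and Hsd11b2, the enzyme that inactivates glucocorticoids and so leaves the mineralocorticoid receptor to aldosterone, at 3.02-fold (60.6 and 20.1). A dimmer Cebpd probe set had 9.61, which is under the floor, and 14.7. The glucocorticoid receptor gene Nr3c1 had signals of 59.4 and 65.7, and Fkbp5, Fkbp4 and Klf9 had 248 and 288, 591 and 594, and 341 and 524. The mineralocorticoid receptor gene Nr3c2 was not analysed here. Promoter windows existed for 8 genes of this list, 11 windows in all. The palindrome was in 0 of the 11, and it is so rare (0.00913% of all windows) that this says nothing of these genes. The single arm was in 1 of the 11, for Tsc22d3 (19.0% of all windows). The STAT-type motif was in 3 of the 11, for Klf9, Per1 and Tsc22d3 (8.30% of all windows).

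Among 14 genes of the NEDD4 family, its adaptors and the 14-3-3 proteins, which hold phosphorylated NEDD4L away from the channel, 0 were past 2-fold on the higher side and 1 on the lower. That gene was Sfn, which encodes 14-3-3 sigma, at least 6.34-fold lower, from 89.0 in the control to 0.68, a value under the floor. The bright 14-3-3 genes Ywhab, Ywhaq and Ywhaz had signals of 2601 and 2647, 2728 and 2684, and 1992 and 3224. For Ywhaz, 2 dimmer probe sets were past 2-fold (633 and 1437, and 303 and 732) and others were not, so its probe sets disagree. A dim Ywhab probe set, 1438708_x_at, was 3.46-fold lower, with 52.0 and 15.0.

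All 8 measured proteases that activate the channel by cleavage, and their inhibitors, lay within 2-fold. Prss8, which encodes the channel-activating protease prostasin and was picked out here after its value was seen, had signals of 241 and 461, 1.91-fold higher. St14, which encodes matriptase, had 1015 and 757, Ctsb 3177 and 2891, and the inhibitor gene Spint2 2235 and 3183. The other pump and FXYD genes held 4 with a ratio, and those measured on both arrays lay within 2-fold: Atp1b3, another beta subunit, had 1424 and 1156, Fxyd1 23.3 and 28.2, and Fxyd5 33.1 and 22.4. Fxyd6 had 9.03, which is under the floor, and 14.8, so its ratio is only a bound.

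Among 7 other sodium transporters, ENaC relatives and their scaffold genes, 1 was past 2-fold. Slc12a2, the cotransporter that brings sodium, potassium and chloride into secreting cells from the basolateral side, was 2.14-fold higher in the knockout (1355 and 2899), and its other probe sets were 2.92-fold (247 and 721) and 2.56-fold higher (199 and 509). All 3 of its probe sets were thus past 2-fold in one direction. The scaffold genes Slc9a3r1 and Slc9a3r2 had 817 and 729.9, and 123 and 78.6, and the glucose cotransporter gene Slc5a1 had 63.4 and 74.2. A dimmer Slc9a3r2 probe set, 1431208_a_at, was 2.60-fold lower (47.4 and 18.2), while its others measured on both arrays lay within 2-fold. Among 11 trafficking and anchoring genes, Mal, a raft protein of apical transport, was 5.00-fold lower (431 and 86.2; a dimmer probe set 203 and 50.9, 3.99-fold lower). Ezr, Snx3 and Rab11a had 1797 and 1903, 1259.7 and 984, and 1219 and 1121.

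**Figure D4:**
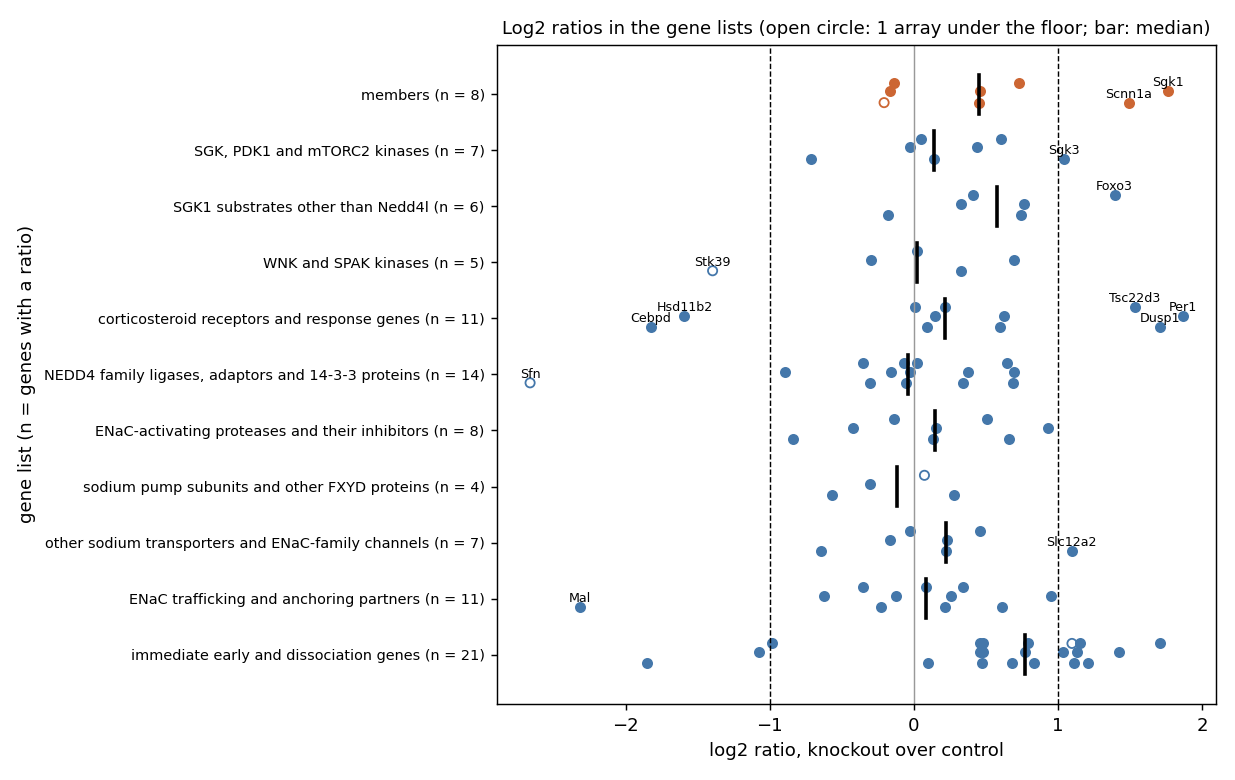
Log2 ratio of knockout over control for each gene with a ratio (points; open where 1 array was under the floor), in the 8 genes described above (labelled members), the 9 lists of the route and the immediate early list, with the median of each list as a black bar and 2-fold as dashed lines. Most points lie within 2-fold; outside the immediate early list, Sgk1, Scnn1a, Sgk3, Foxo3, Tsc22d3, Dusp1, Per1 and Slc12a2 lie beyond it on the higher side, and the immediate early genes, 8 of 21 beyond it on that side, have a median of 0.77.

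Sgk1 is itself induced quickly by serum, stress and steroids, and the other genes that respond to stimuli and to tissue dissociation were read beside it. Of 21 immediate early and dissociation genes with a ratio, 8 were past 2-fold on the higher side in the knockout and 2 on the lower (7.37% and 9.92% of all genes), with a median of 0.77 on the log2 scale and summed signals of 10049.7 and 15921. The higher ones, besides Dusp1, were Egr1 (462 and 1239), Btg2 (602 and 1388), Jun (780.0 and 1738), Fosb (38.3 and 84.1), Rhob (77.6 and 168), Ier2 (744 and 1522) and Egr2 (9.33, under the floor, and 30.1); Ier3 (1021 and 485) and Ier5 (97.2 and 26.9) were lower. Their part in the Sgk1 difference was not tested.

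Markers of other cells were present in both preparations. Their counts past 2-fold stand beside 7.37% of all genes higher and 9.92% lower, and their median log2 ratios beside 0.05. The 9 stromal markers had summed signals of 2582 and 3568 (control and knockout), 0 of 8 past 2-fold and a median of 0.42. Of these 8, 7 were higher in the knockout, among them Dcn (1235 and 1753), and 1 was lower, Pdgfra (27.8 and 17.2). Hand2 was near 0 (0.61 and 1.43). The 10 leukocyte markers had summed signals of 429 and 639.8, with 1 of 6, C1qa, past 2-fold (33.2 and 67.4) and a median of 0.72; Lyz2 had 154 and 296, Csf1r 85.8 and 144, and Cd68, lower in the knockout, 81.1 and 44.4; Cd3e, Nkg7, Cd79a and S100a8 were under the floor on both arrays. The 6 gland markers had summed signals of 87.7 and 223, with Spink1 10.9-fold higher (14.2 and 155), Lif at least 2.12-fold lower, and Foxa2 at 22.0 and 23.9. Smooth muscle markers (summed signals 146 and 103) and endothelial markers (67.1 and 53.6) were dim, with 4 of 6 under the floor on both arrays in each list. Their part in the differences of the sodium uptake genes was not tested.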

How the data were processed

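Affymetrix Expression Console 1.1 and MAS5 are named in the submitters' processing notes. The authors deposited 1 intensity value (MAS5 signal) per probe set and array, for 22690 probe sets, 64 of them controls. The platform annotation gave 1 gene for 20380 of the others, several for 691 and none for 1555; only probe sets of 1 gene were named, with symbols updated by gene ID through RefSeq (GRCm38.p6), which held 20351 of them. The brightest probe set by mean log2 signal stood for a gene. Signals under the 40th percentile were raised to it; with 1 array under it the ratio is a bound, with both there is none. No pseudocount was used. Genes were counted at 2-fold. With 1 array per genotype there is no spread within a group and no p-value, and the number of arrays limits the precision. Members and lists were chosen with earlier results of these data known. Named were all members with all probe sets, Stat3, genes of the 9 route lists past 2-fold with the 3 brightest others per list, and the 3 genes nearest to Sgk1 in ratio; further names, marker genes among them, were added after their values were seen. Protein sequences were not used here, so the planned protein search was left out. Ratios were computed with Python 3.11.15 and pandas 2.3.3. They were tested on simulated data with large changes in bright genes only, so recovery of smaller changes or of changes in dim genes was not tested. Alternatives changed the scaling, the floor, the choice of probe set and the fold limit. Per the labels, RNA extraction was described for human endometrial stroma, which goes against the mouse epithelium of every other label.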

Additional observations from a re-analysis of the deposited data

How the results depend on the processing

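No paired analysis was possible because each genotype has 1 array, and no replicate could be left out. Other floor percentiles and probe set choices cannot change the ratio of a bright gene with 1 unshared probe set, such as Sgk1. Such values are among the 63 counted as unchanged below. Of 68 alternative values of the 8 ratios, 63 either stayed past 2-fold (Sgk1 and Scnn1a) or, for the other 6 genes, moved by less than the SD between probe sets without passing 2-fold (Scnn1b by its bound); the exceptions follow. Scnn1a had a log2 ratio of 0.96 with the floor value added. Scnn1b had -2.23 with the floor at the 20th percentile, -3.18 with none and -0.93 with the floor value added. Atp1b1 had -0.069 without probe sets shared between transcripts, which leaves its dim one. Nedd4 and Nedd4l had no ratio without the shared probe sets, and Scnn1a and Scnn1b none with the floor at the 60th percentile. Median centring moved the median log2 ratio of all genes to 0.11, and loess to -0.01. The 2 higher members became 1 with the floor at the 60th percentile, with the floor value added and at 3-fold; the 0 lower members became 1 with the floor at the 20th percentile and 2 with none. The 6 higher route genes became 11 with no floor, 19 at 1.5-fold and 2 at 3-fold, and the 5 lower ones 2 with the floor at the 60th percentile and 10 at 1.5-fold. Over all genes, 612 higher and 824 lower became 1927 and 1774 with no floor, 346 and 449 with the floor at the 60th percentile, 1607 and 1541 at 1.5-fold and 143 and 401 at 3-fold; the higher ones were 1094 with the floor at the 20th percentile. Signals near the floor limit what can be said of the channel subunits.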
